A study of Mus musculus with 7 samples.

Results

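The 10 genes described here encode structural proteins of the basement membrane and the matricellular protein SPARC. They were chosen by name: Col4a1 and Col4a2 (collagen IV), Lama4, Lama5, Lamb1 and Lamc1 (laminins), Nid1 and Nid2 (nidogens), Hspg2 (perlecan) and Sparc. All 10 had at least 1 probe set annotated to that gene alone, out of 12393 such genes on the arrays, and together they had 19 probe sets.

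The RNA of fetal liver cells from mice was hybridised to 7 single-colour arrays, on which short oligonucleotides are grouped into probe sets. The groups were liver endothelial progenitor cells sorted as positive for the surface antigen Sca1 (Sca1+, n = 2), cells sorted as negative for it (Sca1-, n = 3), progenitor cells whose label names no sort (unsorted, n = 1) and a layer of feeder cells taken from fetal liver (feeder, n = 1). The labels give no strain, fetal age, genotype or treatment, and do not say whether samples of a group came from separate cultures or animals. The arrays divide into a first deposit set, with Sca1+ replicate 1, Sca1- replicate 1, unsorted and feeder, and a second set, with Sca1+ replicate 2 and Sca1- replicates 2 and 3. That division was inferred from the numbering in the sample titles and from fields of the sample records, and the labels do not name it.

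A basement membrane is a thin sheet of matrix on which endothelium, epithelium and muscle rest. Laminin heterotrimers of an alpha, a beta and a gamma chain assemble at the cell surface, a covalently linked collagen IV network is laid against them, and nidogens and the heparan sulphate proteoglycan perlecan bridge the networks. SPARC binds collagens, collagen IV among them, and takes part in matrix assembly and remodelling. In liver the sinusoids lack a continuous basement membrane, whereas portal vessels and bile ducts have one, and fibroblasts and stellate cells also make these proteins.

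Collagen IV is the one component of this group whose chains are encoded head to head, so the sequence around the start sites is shown first. In the RefSeq promoter table (build GRCm38.p6), which held 7 of the 10 genes, Col4a1 starts at position 11312826 of chromosome 8 on the minus strand. Col4a2 starts at position 11312805 on the plus strand, 21 bases away, so from these starts the 2 transcripts overlap. The annotated extent of Col4a1 reaches 11312889, beyond the start used here. Both lines below cover chr8:11312801-11312830, each 5′ to 3′ on its gene's strand, with the 22 bases from one start to the other in capitals.
Col4a1: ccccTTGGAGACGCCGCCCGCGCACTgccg
Col4a2: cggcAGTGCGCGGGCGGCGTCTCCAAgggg
The 250 bases before the start of Sparc, the gene with the widest range among these arrays, are shown for contrast (chr11:55420081-55420330, minus strand, 5′ to 3′), with its 4 CpG dinucleotides in capitals.
Sparc: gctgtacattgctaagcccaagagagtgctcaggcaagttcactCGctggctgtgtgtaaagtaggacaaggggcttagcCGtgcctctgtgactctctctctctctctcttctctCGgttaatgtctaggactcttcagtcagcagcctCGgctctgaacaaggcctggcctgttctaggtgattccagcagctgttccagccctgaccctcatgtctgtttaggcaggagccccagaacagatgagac

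The table gives a window of 250 bases before and 50 bases after each start. The Col4a1 and Col4a2 windows overlapped by 78 bases, and 10.797% of the 32851 windows in the table overlapped a window of another gene on the opposite strand. The Col4a1 window held 37 CpG dinucleotides at 74.0% G and C, and the Col4a2 window held 33 at 73.7%. The Sparc window held 4 at 55.3%, against a median of 7 CpG and 52.7% over all windows. Lama5, Hspg2, Nid1 and Lamb1 had 24, 27, 20 and 18 CpG in their windows. On both strands, the letters TATAAA were absent from all 7 windows and present in 13.616% of all windows. The letters GGGCGG occurred in 6 of the 7 windows, all but that of Sparc, and in 35.658% of all windows. The only Col4a1 match lies in the overlap and is the same bases as 1 of the 3 Col4a2 matches. The letters CCAAT occurred in the windows of Col4a1, Col4a2, Lamb1 and Nid1 and in 37.408% of all windows.

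Values below are probe set signals scaled to a trimmed mean of 500 on each array, and differences are of log2 signal after signals under 64 were set to 64. A difference from a floored value, or from one below the controls described next, is not exact. Where a gene had several probe sets, that of highest mean log2 signal is given first. Probe sets for bacterial transcripts, taken here as background controls on the assumption that no such transcripts were added, reached 50.8 to 88.2 on 5 arrays and 170 on Sca1- replicate 1 and on the unsorted array. No 2 probe sets are compared with each other in level.

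The first-set sorted arrays stood apart from all others in the ratio of 3′ over 5′ signal and in the sums of fibroblast and of leukocyte markers. The Actb ratio of 3′ over 5′ signal, which rises as RNA is shortened, was 6.83 and 13.5 on the Sca1+ and Sca1- arrays of the first set, 1.87 to 2.37 on the 3 arrays of the second set, 1.01 in unsorted cells and 1.03 in feeder cells. The summed signal of 14 fibroblast and mesenchymal markers was 2673 to 4373 on the first-set sorted arrays, 34615 to 91897 on the second-set arrays, 63819 in unsorted cells and 71620 in feeder cells. Of these 14, 6 to 8 exceeded a signal of 100 on the first-set sorted arrays and 12 to 13 on the second-set arrays. Of 26 pan-endothelial markers, 6 to 13 exceeded 100 on the first-set sorted arrays and 9 to 17 on the second-set arrays. In unsorted cells 18 did, and in feeder cells 10. The highest control of the array was exceeded by 11 on Sca1+ replicate 1 and 5 on Sca1- replicate 1. It was exceeded by 10 to 19 on the second-set arrays, 12 in unsorted cells and 17 in feeder cells, so the order of arrays depended on the cut. Pecam1, which encodes the endothelial antigen CD31, lay between 15.0 and 206 throughout. Levels differed between markers, with Erg between 6.40 and 40.8 and Eng between 184 and 749. All 12 leukocyte and macrophage markers exceeded 100 on every array, and their sum was 201118 to 248816 on the first-set sorted arrays, 113314 to 124759 on the second-set arrays, 81598 in unsorted cells and 78872 in feeder cells. No listed marker was at 0. In such bulk RNA, fewer cells of a type and less RNA per cell cannot be told apart.

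**Figure D1:**
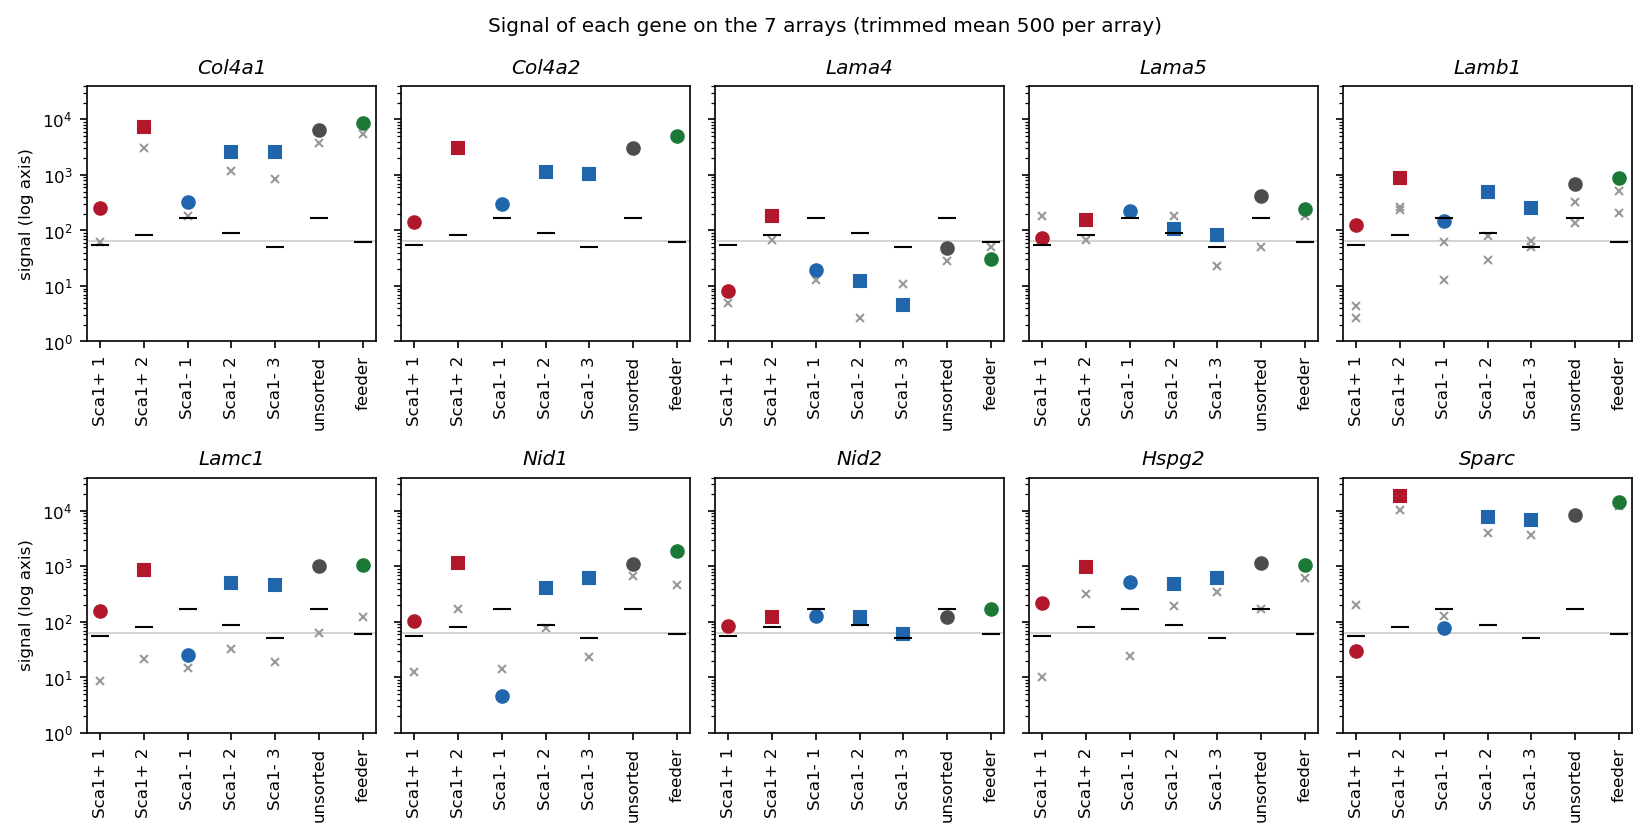
Scaled signal (log axis) of the 10 genes on the 7 arrays. Coloured points give the probe set used for each gene (red Sca1+, blue Sca1-, grey unsorted, green feeder; circles first set, squares second set), grey crosses give the gene's other probe sets, black bars give the highest bacterial control of that array, and the grey line marks the floor of 64. For Col4a1, Col4a2, Lamb1, Lamc1, Nid1 and Sparc the squares lie above the red and blue circles.

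Collagen IV transcripts had low signals on the first-set sorted arrays and high signals on all others. Col4a1 (chr8:11198423-11312889), which encodes the alpha-1 chain, read 258 and 7258 in Sca1+ (replicates 1 and 2), 329, 2632 and 2612 in Sca1- (replicates 1, 2 and 3), 6471 in unsorted cells and 8780 in feeder cells. Both first-set sorted arrays lay below all 3 second-set arrays, and Sca1+ and Sca1- overlapped. Col4a2 (chr8:11312805-11449287), which encodes the alpha-2 chain of the same trimer, read 141 and 3078 in Sca1+, 299, 1135 and 1036 in Sca1-, 3027 in unsorted cells and 5058 in feeder cells. Its 7 arrays fell in the same order from high to low as those of Col4a1, from the feeder, Sca1+ replicate 2 and the unsorted array down to Sca1- replicate 1 and Sca1+ replicate 1. The other Col4a1 probe set read lower and kept the gap between sets, with 62.4 and 3052 in Sca1+, 182, 1170 and 832 in Sca1-, 3775 in unsorted cells and 5549 in feeder cells.

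Of the laminin chains, Lamb1 and Lamc1 followed the same split between sets, and the alpha chains did not. Lamc1 (chr1:153218922-153332786), the gamma-1 chain found in most laminins, read 159 and 879 in Sca1+, 25.2, 495 and 463 in Sca1-, 1003 in unsorted cells and 1075 in feeder cells. On Sca1- replicate 1 it was below the bacterial controls. Lamb1 (chr12:31265146-31329644), the beta-1 chain, read 125 and 873 in Sca1+, 149, 494 and 256 in Sca1-, 698 in unsorted cells and 864 in feeder cells. The value of 149 was also below the controls of its array.

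Lama4 (chr10:38965515-39110188), the alpha-4 chain of endothelial and mesenchymal laminins, exceeded the controls on 1 array, Sca1+ replicate 2, where its signal was 186. Its other sorted arrays read 8.20, 19.4, 12.2 and 4.60, the unsorted array 48.8 and the feeder array 31.0. Its second probe set peaked on the same array, at 67.0, and exceeded the controls on none. Lama4 did not reach a signal of 100 on 2 sorted arrays and so was the 1 gene of the 10 left untested.

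Lama5 (chr2:180176373-180225904), the alpha-5 chain of vascular and epithelial laminins, read 72.2 and 152 in Sca1+, 224, 108 and 83.0 in Sca1-, 421 in unsorted cells and 246 in feeder cells. These lay above the controls on all 7 arrays, and first-set and second-set arrays overlapped. Its second probe set disagreed with the first, with 185 and 67.6 in Sca1+, 194, 185 and 23.0 in Sca1-, 49.4 in unsorted cells and 186 in feeder cells. A direction for Lama5 therefore depended on the probe set read.

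The nidogens differed from each other. Nid1 (chr13:13437602-13512275), which links laminin gamma-1 to collagen IV, read 104 and 1143 in Sca1+, 4.60, 402 and 607 in Sca1-, 1102 in unsorted cells and 1887 in feeder cells. Both first-set sorted arrays lay below the 3 second-set arrays. Nid2 (chr14:19751257-19811787), a related nidogen, stayed between 61.0 and 173 on all 7 arrays, with 83.2 and 125 in Sca1+ and 128, 121 and 61.0 in Sca1-. It was below the controls on Sca1- replicate 1 and on the unsorted array, where it read 120.

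Hspg2 (chr4:137468751-137570630), which encodes perlecan, read 222 and 988 in Sca1+, 526, 477 and 627 in Sca1-, 1169 in unsorted cells and 1066 in feeder cells. The 3 Sca1- arrays lay close together whichever set they came from, and Sca1+ replicate 1 was the lowest of the 7. The second Hspg2 probe set showed a gap between sets that the first did not, with 10.4 and 24.2 in the sorted cells of the first set and 192 to 340 on the second-set arrays.

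Sparc (chr11:55394159-55420080) had the widest range. Sparc signals were 29.6 and 18520 in Sca1+, 77.6, 7905 and 6854 in Sca1-, 8558 in unsorted cells and 14631 in feeder cells. Both first-set sorted arrays lay below the bacterial controls of their own array, so Sparc entered the test through the second set alone, with 0 of 2 first-set and 3 of 3 second-set arrays above 100. The second Sparc probe set read 201 and 127 on the first-set Sca1+ and Sca1- arrays, the former above the controls, and 3693 to 10502 on the second-set arrays.

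The fit over the 5 sorted arrays with the fraction and the deposit set as terms (limma, Benjamini-Hochberg adjustment over 8591 genes at 0.05) called 6 of the 9 tested genes higher in the second set and 0 lower. Over all genes tested, 11.7% were called higher and 7.53% lower. Sparc passed the signal filter only through the set in which it was high and so had to differ. Among genes above 100 on at least 1 first-set array, 5 of 8 were called higher and 0 lower, against 10.5% and 7.94% of the 8146 such genes. Those 8 genes had a median difference of 2.32 on the log2 scale, against 0.04 for the 8146. The 6 genes called had every second-set sorted array above both first-set ones, an ordering found in 26.5% of all genes tested. The set is not a biological condition in the labels, and the 3′ to 5′ ratios and the sums of fibroblast and of leukocyte markers given above moved with it. Their part in these differences was not tested.

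Col4a1 rose by 3.77 ± 0.42 (SE; 13.7-fold, limma adjusted p = 0.0049) from the first to the second set, and Col4a2 by 2.97 ± 0.56 (7.82-fold, limma adjusted p = 0.019). The Col4a1 difference was 4.81 within Sca1+ and 2.99 within Sca1-, and that of Col4a2 was 4.44 and 1.86. Lamc1 rose by 2.72 ± 0.29 (limma adjusted p = 0.00459) and Nid1 by 3.16 ± 0.34 (limma adjusted p = 0.00446), each with 1 of its 2 first-set arrays above the controls. Within Sca1+, where both arrays exceeded them, the differences were 2.47 and 3.45. Lamb1 rose by 1.92 ± 0.48 (limma adjusted p = 0.0402), the value nearest the threshold. Its call was lost when Sca1+ replicate 1 (limma adjusted p = 0.148) or Sca1+ replicate 2 (limma adjusted p = 0.142) was left out. It was also lost with the mean of its 3 probe sets (limma adjusted p = 0.125) and with median scaling (limma adjusted p = 0.0562). For the Sparc probe set used no exact difference is given, because neither first-set array exceeded the controls. Set against the higher of the control and the floor on those arrays, its second-set mean was at least 96.0-fold higher. That bound holds for this probe set only. The second Sparc probe set gave a smaller difference, 5.32 on the log2 scale, with its first-set Sca1- signal below the controls.

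Hspg2 differed by 0.96 ± 0.49 between the sets (limma adjusted p = 0.213) and did not pass. It passed without Sca1- replicate 1, at 2.16 (limma adjusted p = 0.0149), and with the mean of its 2 probe sets, at 1.54 (limma adjusted p = 0.0471). Lama5 at -0.25 ± 0.59 and Nid2 at -0.06 ± 0.49 did not pass either (limma adjusted p = 0.785 and 0.948). Over all genes the set fit called 1649, or 19.2%, and this count was 3194 when Sca1+ replicate 1 was left out, 3421 when Sca1+ replicate 2 was and 688 when Sca1- replicate 3 was. With no filter on low signals it called 99 genes and 0 of the 10, with limma adjusted p between 0.055 and 0.184 for Col4a1, Col4a2, Lamc1, Nid1 and Sparc and 0.232 for Lamb1.

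**Figure D2:**
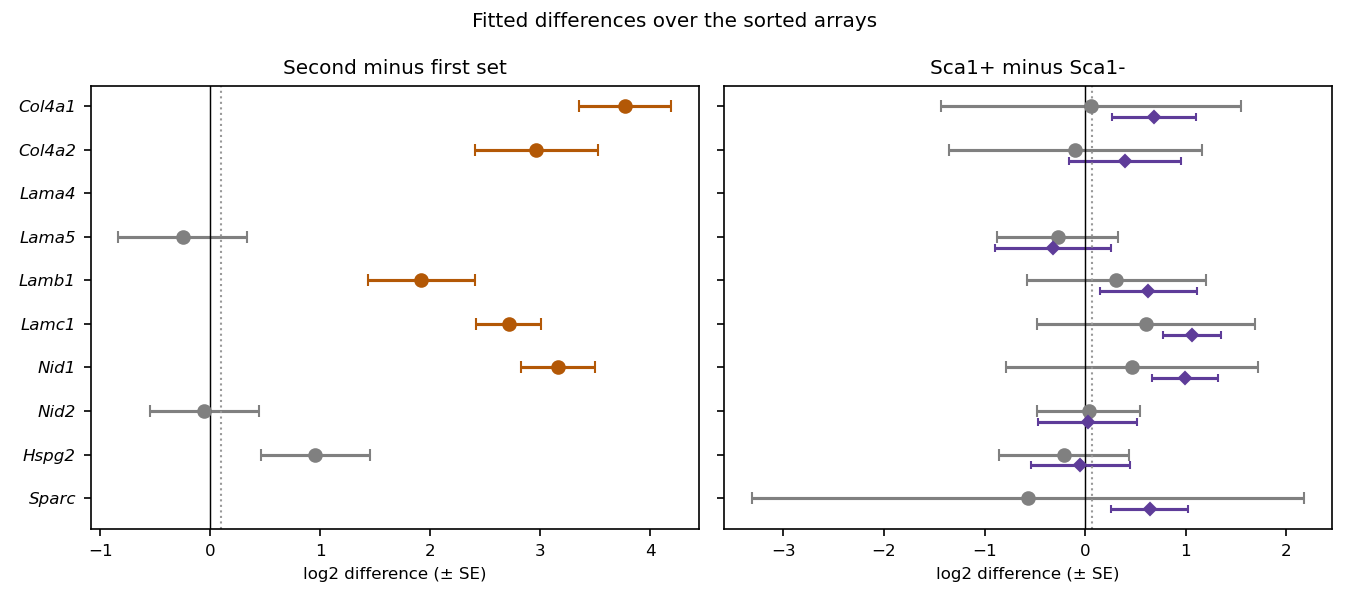
Fitted log2 differences (points) with standard errors (bars) over the sorted arrays for the 9 tested genes; the dotted line is the median of all genes tested, and Lama4 was not tested. Left, second minus first set, orange where the adjusted p was under 0.05, with Sparc left out because the probe set used had no first-set signal above the controls. Right, Sca1+ minus Sca1-, grey circles without and purple diamonds with the deposit set as a term; no gene of the 10 passed in either fit.

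The study's replicated contrast is between the sorted fractions, and none of the 9 tested genes passed the test between Sca1+ and Sca1- in the fit with group as its only term. That limma fit called 0% of the 8591 genes (smallest adjusted p = 0.710), while 95 genes (1.11%) were higher and 197 (2.29%) lower at an unadjusted p under 0.05, with 0 of the 9 among them. The limma adjusted p was 0.9995 for each of the 9. The differences, Sca1+ minus Sca1-, were 0.06 ± 1.49 for Col4a1, -0.10 ± 1.26 for Col4a2 and -0.57 ± 2.75 for Sparc. For Lamc1 the value was 0.61 ± 1.08, for Nid1 0.47 ± 1.25, for Lamb1 0.31 ± 0.89, for Lama5 -0.27 ± 0.60, for Hspg2 -0.21 ± 0.65 and for Nid2 0.04 ± 0.51. In every case the standard error exceeded the difference. None of the 10 genes had both Sca1+ arrays above all 3 Sca1- arrays, or below them, while 12.1% and 8.56% of all genes tested did.

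With the deposit set as a term, limma called 85 genes, 0.989% of those tested, all lower in Sca1+, and 0 of the 9. The standard errors shrank, and Lamc1 at 1.06 ± 0.29 and Nid1 at 0.99 ± 0.33 came nearest to the threshold (limma adjusted p = 0.210 and 0.260). Col4a1 stood at 0.69 ± 0.42 (limma adjusted p = 0.440). For Sparc the value was 0.64 ± 0.38 (limma adjusted p = 0.437), of the opposite sign to the fit without the set, and for Col4a2 it was 0.40 ± 0.56 (limma adjusted p = 0.748), also of the opposite sign.

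Within the sets the fractions ran in opposite directions for 7 of the 9 tested genes, which 30.1% of all genes tested also did. In the second set Sca1+ replicate 2 exceeded both Sca1- arrays for the probe set used of all 10 genes, 9 of 9 among those tested, and 44.7% of all genes tested shared that order. It did so for 6 of the 9 further probe sets, and those of Lama5 (67.6 against up to 185), Hspg2 (315 against up to 340) and Lamc1 (21.8 against up to 32.4) did not. The difference from the mean of the 2 Sca1- arrays was 1.47 for Col4a1, 1.51 for Col4a2, 1.30 for Lamb1, 1.21 for Nid1 and 1.33 for Sparc. These 5 were at least 2-fold higher, as were 5.3% of all genes tested. The values for Lamc1, Hspg2, Lama5 and Nid2 were 0.88, 0.85, 0.68 and 0.51. Sca1+ replicate 2 also had the highest sum of fibroblast and mesenchymal markers of the 7 arrays, 91897 against 34615 and 36981 on Sca1- replicates 3 and 2, and the lowest sum of 10 granulocyte markers among the sorted arrays, 8717 against 192058 and 218131. The part of either in these differences was not tested. There is 1 Sca1+ array in each set, so no within-set difference has a replicate on that side.

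In the first set the order was mostly the reverse. Sca1+ replicate 1 had a lower signal than Sca1- replicate 1 for 8 of the 10 genes, and for 7 of the 9 tested after flooring, against 46.9% of all genes tested. The largest of these differences were -1.64 for Lama5, -1.25 for Hspg2 and -1.08 for Col4a2. Lamc1 and Nid1 ran the other way, at 1.31 and 0.71, each against a floored Sca1- value. For Lamc1, Nid1, Lamb1, Nid2 and Sparc the Sca1- signal was below the controls of its array, so their first-set direction is uncertain. The 2 arrays also differed in their Actb ratios, given above, and in the sum of granulocyte markers, 135106 in Sca1+ and 558591 in Sca1-, whose part was not tested. The product of fraction and set, which tests whether the fraction difference differed between the sets, called 0% of the 8591 genes (limma, smallest adjusted p = 0.101). Of the 9 genes, 5 were higher at an unadjusted p under 0.05, a direction in which 13.4% of all genes were. With a floor of 16 in place of 64 the limma fit called 1696 genes and 5 of the 9, with a pseudocount of 32 it called 1970 and 4, and with no filter 1833 and 3 of the genes described here, so the count of 0 depends on these settings. That fit has 1 residual degree of freedom, which comes from Sca1- replicates 2 and 3 alone.

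**Figure D3:**
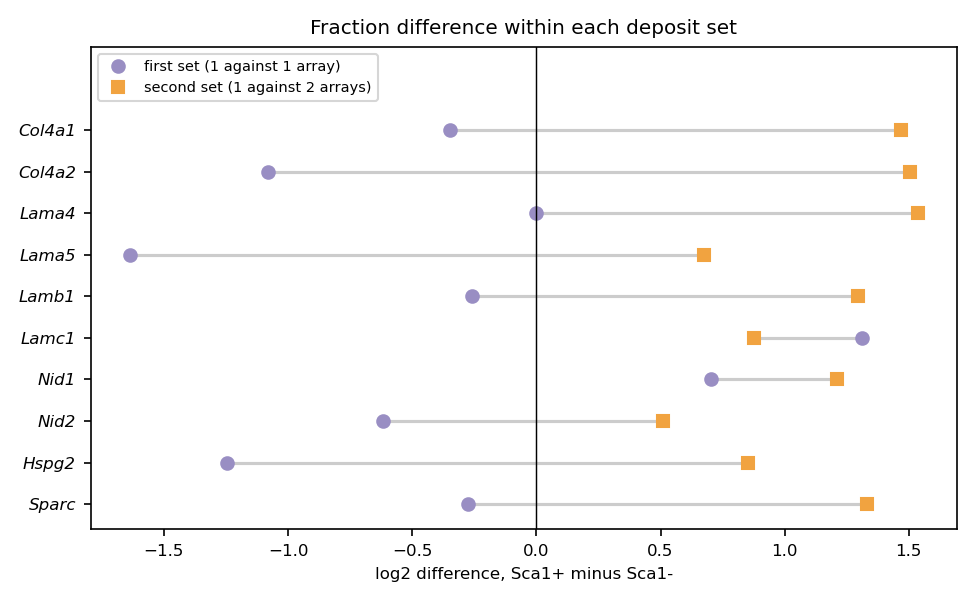
Log2 difference of Sca1+ minus Sca1- within the first set (purple circles, 1 array against 1) and within the second set (orange squares, 1 array against the mean of 2), without error since Sca1+ has 1 array per set. All squares lie above 0, and 7 of the circles lie below it.

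The unsorted array, of progenitor cells whose label names no fraction, had higher signals than the sorted arrays for most of the 10 genes. Against the mean of the Sca1+ and Sca1- means, 8 of 10 genes were at least 2-fold higher and 0 lower, where 21.6% of 10510 genes were higher and 6.83% lower. The differences were 2.69 for Sparc, 2.27 for Col4a1, 2.15 for Col4a2, 1.91 for Nid1, 1.87 for Lama5, 1.73 for Lamc1, 1.24 for Lamb1 and 1.22 for Hspg2. Nid2 was at 0.26, and Lama4 was floored in unsorted cells. The median of the 10 was 1.80, against 0.28 over all genes. The background turned with the scaling: 577 genes were at least 2-fold higher and 2381 lower with median scaling, where the median of all genes was -0.37, and 1012 and 1193 with quantile normalization, where it was -0.09. Of the 10 genes, 6 and 7 were at least 2-fold apart in those settings.

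The comparison depended on which sorted arrays entered it. The unsorted signal exceeded every sorted array for 3 genes, Lama5, Lamc1 and Hspg2, as it did for 35.4% of all genes counted. For the others Sca1+ replicate 2 was higher, with Sparc on the unsorted array at 0.462 of the level on that array and Col4a1 at 0.892. The second probe sets of Lama5 and Hspg2 read 49.4 and 173 on the unsorted array, below the highest sorted signals of 194 and 340. With the mean of probe sets the differences were 0.47 for Lama5 and 0.71 for Hspg2. Without Sca1+ replicate 1 the count of genes at least 2-fold higher was 5 in place of 8, the median of the 10 was 0.86, and the differences were 0.65 for Sparc, 1.07 for Col4a1, 1.04 for Col4a2, 1.04 for Nid1, 1.11 for Lamc1, 0.54 for Lamb1 and 0.68 for Hspg2. With the mean of each gene's probe sets it was also 5. The unsorted array was placed in the first set by its unnumbered title and by fields of its record. The labels do not settle that placing. Its Actb ratio of 1.01 was below those of all sorted arrays, and its fibroblast marker sum lay within the range of the second-set arrays. The part of either was not tested. There is 1 unsorted array, so these values have no test.

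Feeder cells from fetal liver serve as a support layer in culture. Their signals lay within 2-fold of the unsorted array for the probe sets used, as for most genes. The feeder data come in a table of their own, under another array platform, so its differences are described without a test. From the unsorted array to the feeder array 0 of the 9 genes above the floor on either array moved 2-fold in either direction, where 4.08% of 9751 genes were at least 2-fold higher and 15.9% lower. Nid1, Sparc and Col4a2 stood at 0.78, 0.77 and 0.74, Nid2 at 0.52, Col4a1 at 0.44, Lamb1 at 0.31 and Lamc1 at 0.10. Hspg2 at -0.13 and Lama5 at -0.77 were below 0 for the probe sets used, but both turned with the mean of probe sets, to 0.86 and 0.38, and Hspg2 also with median scaling, to 0.23. The second probe sets of Hspg2 and Lama5 read 3.60-fold and 3.76-fold higher on the feeder array. That of Nid1 read lower there, 467 against 681 on the unsorted array, and with the mean of probe sets Nid1 stood at 0.12. With median scaling in place of the trimmed mean, 3 genes reached 2-fold, namely Col4a2 at 1.10, Nid1 at 1.13 and Sparc at 1.13, while the median of all genes moved from -0.13 to 0.28.

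Relative to the mean of the sorted fractions, the same arrays against which the unsorted one was set, the feeder array was at least 2-fold higher for 8 of the 10 genes and lower for 0, with 12.1% of 9946 genes higher and 7.1% lower. Sparc stood at 3.46, Col4a2 at 2.89, Col4a1 at 2.71 and Nid1 at 2.68, followed by Lamc1 at 1.83, Lamb1 at 1.55, Lama5 at 1.10 and Hspg2 at 1.09. Without Sca1+ replicate 1 the count was 5, with Sparc at 1.42, Col4a2 at 1.78, Col4a1 at 1.51, Nid1 at 1.82, Lamc1 at 1.21, Lamb1 at 0.84 and Hspg2 at 0.55. With median scaling 699 of all genes were at least 2-fold higher and 1386 lower. The feeder signal exceeded every sorted array for 7 of the 10 genes, as it did for 23.7% of all genes counted. The exceptions were Lama4, Lamb1 and Sparc, which were highest of all 7 arrays on Sca1+ replicate 2.

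**Figure D4:**
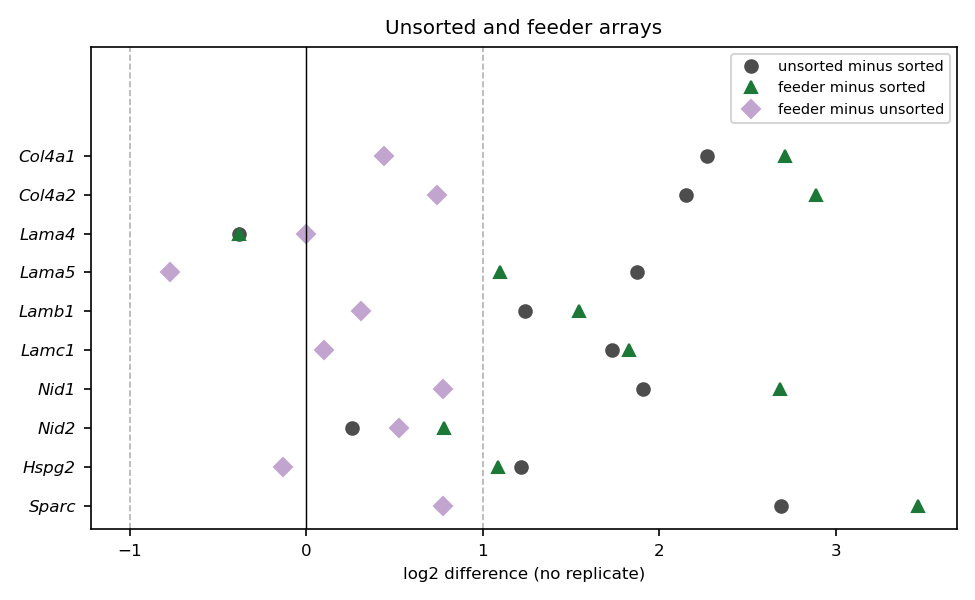
Log2 differences between single arrays or means for the 10 genes: unsorted minus the mean of the sorted fractions (grey circles), feeder minus that mean (green triangles) and feeder minus unsorted (lilac diamonds), with dashed lines at 2-fold. The circles and triangles of 8 genes lie beyond the upper dashed line, and all diamonds lie between the dashed lines.

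The 9 further probe sets give a second reading of the same RNA, although they share each gene's cells and arrays. The 3 second-set sorted arrays lay above both first-set sorted arrays for 12 of the 19 probe sets, 6 of them among the 9 further ones. That order was found in 26.5% of all genes tested, with 1 probe set each, and no share over all probe sets was taken. A second Nid1 probe set read 12.8 and 14.4 in the sorted cells of the first set, 23.0 to 169 on the second-set arrays, 681 in unsorted cells and 467 in feeder cells. The second Lamc1 probe set exceeded the controls only on the feeder array, at 121. It is counted among the 6, but its sorted signals of 8.60 to 32.4 were all floored, so it adds no reading of the gap. Both further Lamb1 probe sets were highest among the sorted arrays on Sca1+ replicate 2, at 234 and 267. The former did not keep the gap between sets, with 62.4 on Sca1- replicate 1 against 29.6 and 51.2 on replicates 2 and 3. The latter and the second Nid1 probe set are counted among the 6. On Sca1- replicate 3 they read 63.6 and 23.0, floored like both first-set sorted arrays, so after flooring that array shows no gap. Of the 10 probe sets used, 4 exceeded the controls on all 7 arrays, those of Col4a1, Col4a2, Lama5 and Hspg2.

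The genes most like Col4a1, Lamc1, Nid1 and Sparc were sought over the 6 arrays of the larger table among the 5411 genes that exceeded a signal of 500 there at least once. The 6 arrays share the division into sets, and the correlations are given as a description. For Col4a1 the highest Pearson r were those of Col5a1 (0.9999), a fibrillar collagen chain, Osmr (0.998), the oncostatin M receptor, Bicc1 (0.998), Apbb2 (0.996) and Cpe (0.995). Col5a1 read 181 and 2915 in Sca1+ and 223, 1237 and 1191 in Sca1-. Sparc was most like Col1a1 (r = 0.997), the alpha-1 chain of collagen I, followed by Ccn1, Tagln, Cald1 and Ubqln4. Col1a1 read 79.4 and 20565 in Sca1+, 32.6, 8319 and 8775 in Sca1-, 13192 in unsorted cells and 16207 in feeder cells. Nid1 was most like Npdc1 (r = 0.998), then Fkbp9, Ppic, Tpm1 and Col16a1, and Lamc1 was most like Exoc4 (r = 0.997), then Hspb1, Tceal8, Bex3 and Lipa.

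Among the 10 genes themselves, Col4a1 and Col4a2 had r = 0.986 over these arrays. Col4a2 was nonetheless only the gene at rank 50 by likeness to Col4a1. Lamc1 and Nid1 had r = 0.980, and Col4a1 and Sparc r = 0.976. Lama5 and Nid2 had r = 0.356 and 0.196 with Col4a1.

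Other matrix genes, not of basement membranes alone, were compared between the sets. Over all genes tested, 11.7% were called higher and 7.53% lower. Among those above 100 on at least 1 first-set array, 10.5% and 7.94% were. Of 28 further structural genes measured, 16 were tested. Of these, limma called 8 higher in the second set and 0 lower, with 4 below 0. The 8 included the collagen VI genes Col6a1, Col6a2 and Col6a3 and the fibronectin gene Fn1. Lamb2, Agrn, Col4a6, Col7a1, Col18a1, Npnt, Tinagl1 and Tgfbi were tested and not called. Of the 14 above 100 on a first-set array, 6 were called higher, with a median of 1.14 against 0.04 for all such genes. Fbln2, which encodes fibulin-2, rose by 4.46, Col6a1, a chain of microfibrillar collagen VI, by 3.38, and Col15a1 by 2.64. Col4a5, another collagen IV chain, was below the controls on both first-set arrays and entered only through the second set, where its mean was at least 2.84-fold higher than the control level. Fbln2 signals were 106 and 88.5 in the sorted cells of the first set and 1400 to 3626 on the second-set arrays, without overlap. Of 21 genes for collagen-modifying enzymes and chaperones, all tested, 11 were called higher and 0 lower, with 2 below 0. Of the 19 above 100 on a first-set array, 9 were called higher, with a median of 1.22. The crosslinking enzyme Lox, which read 66.6 and 19.0 in the first-set sorted cells and also entered only through the second set, stood at 4.32. The lysyl hydroxylase Plod2 rose by 2.81, Sec23a, a coat protein of the vesicles that leave the endoplasmic reticulum, by 2.75 and the protein disulphide isomerase Pdia4 by 2.17.

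Receptors for basement membrane proteins included a few such genes. Of 19 tested, 4 were called higher and 0 lower, with 6 below 0. All 4 were among the 16 above 100 on a first-set array, whose median was 0.20. Sdc1 (syndecan-1) rose by 2.76, Itgb1 (integrin beta-1) by 1.94, Stab1 (stabilin-1, a scavenger receptor that binds SPARC) by 1.20 and Itgav (integrin alpha-V) by 1.15. Itgb1 exceeded the controls on all arrays, with signals of 978 and 2180 in Sca1+ and 247, 1478 and 1352 in Sca1-. The margin was smallest on Sca1- replicate 1, where the controls reached 170. Among the Sparc family and other matricellular genes, 7 of 9 tested were called higher and 0 lower, with 2 below 0. Of the 6 above 100 on a first-set array, 4 were called higher, with a median of 1.99. Ccn2 rose by 5.07, Fstl1, a relative of Sparc, by 4.13 and Thbs1 (thrombospondin-1) by 1.34. Ccn1 was below the controls on both first-set arrays and entered only through the second set, where its mean was at least 9.82-fold higher. For Fbln2, Col15a1, Plod2, Sec23a, Lox, Pdia4, Sdc1 and Ccn2, 1 of the 2 first-set arrays exceeded the controls, so their differences are not exact. Between Sca1+ and Sca1-, with group as the only term, limma called 0 genes of each of these 4 lists, as it called 0% of all genes.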

How the data were processed

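The authors deposited 1 linear signal intensity for each probe set, and the 2% trimmed mean of each array was near 250. For the second set's 3 arrays the submitters' processing notes name GCOS; for the other 4 it was not given in the sources used here. The feeder array lies alone in 1 of the 2 deposited tables. Of 22690 probe sets, 64 controls were left out and 20380 were annotated to 1 gene, 691 to several and 1555 to none; the first kind was used. Scaling set the 2% trimmed mean of every array to 500, signals were floored at 64 and log2 was taken, and the probe set with the highest mean over the 6 arrays of the larger table stood for its gene. The 8591 genes that exceeded a signal of 100 on at least 2 of 5 sorted arrays were tested with limma 3.58.1 in R 4.3.3 (lmFit, eBayes with trend), adjusted by Benjamini-Hochberg at 0.05. The fit with group only had 3 residual degrees of freedom, those with the set 2. The estimates were checked on simulated data. As the labels name no separate cultures or animals, p-values reflect only how these samples spread, which may be technical, and the number of arrays limits precision. The 10 genes are always named. Of each further list up to 4 genes with the smallest p in the set fit are named with their differences. Some further structural genes are named only as called or not called. For likeness the 5 genes of highest r are named for each of 4 genes. Members, lists, tests and alternatives were chosen with earlier results of these data known. Alternatives were quantile normalization, median scaling, a floor of 16, a pseudocount of 32, no filter, the mean over each gene's probe sets, a block for the set or for the replicate number, and leaving out each sorted array. Promoter sequences are from RefSeq (GRCm38.p6), with 3 genes (Lama4, Lamc1 and Nid2) not matched. Figures were drawn with matplotlib 3.10.9.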

Additional observations from a re-analysis of the deposited data

Results flagged for a closer look

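For 7 of the genes the fraction difference had opposite signs in the 2 deposit sets, Sca1+ lower in the first and higher in the second. The gap between the within-set differences (second minus first, log2) was 2.59 for Col4a2, 2.31 for Lama5, 2.10 for Hspg2, 1.82 for Col4a1, 1.61 for Sparc, 1.55 for Lamb1 and 1.13 for Nid2. None passed the test of that difference, with limma adjusted p of 0.101 for Col4a2, Col4a1 and Sparc, 0.114 for Lama5 and Hspg2, 0.324 for Lamb1 and 0.421 for Nid2. For Lama5 the second probe set disagreed with the one tested. The second Hspg2 probe set did not show opposite signs. It was floored on both first-set sorted arrays, and Sca1+ replicate 2 (315) lay between Sca1- replicates 2 (192) and 3 (340). For Lamb1, Nid2 and Sparc the first-set Sca1- signal was below the bacterial controls of that array, so the sign and the size of their gaps are uncertain, and the other Sparc signal of that set was floored. What lies behind these gaps was not tested.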

How the results depend on the processing

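With 1 Sca1+ array in each set and 7 arrays in all, differences of these genes between the fractions were limited by the spread between sets, and several genes lay near the bacterial controls. Sca1+ against Sca1- called 0 genes by default, 1 with no filter, 85 with the deposit set as a block and 80 with the replicate block, and 0 of the 9 in each. The replicate numbers are shared by 2 pairs only, whose deviations correlated at 0.57 and 0.48 over genes. Signs of the fraction difference turned for Col4a1 with the mean of probe sets (-0.14), for Col4a2 with quantile normalization (0.048), the set block (0.40) and the replicate block (0.18), for Nid2 with the replicate block (-0.28) and for Sparc with the set block (0.64) and the replicate block (0.48). Leaving out 1 sorted array at a time, the fraction difference ran from -2.35 to 2.47 for Col4a1, -2.32 to 2.13 for Col4a2, -4.66 to 3.52 for Sparc, -1.26 to 2.19 for Nid1, -0.62 to 1.84 for Lamc1, -1.09 to 1.71 for Lamb1, -1.28 to 0.87 for Hspg2, -0.81 to 0.26 for Lama5 and -0.28 to 0.33 for Nid2, and 0 genes were called each time. Between the sets, the same omissions gave 688 to 3421 genes and 5 to 7 of the 9, with Lama5 from -1.24 to 1.07 and Nid2 from -0.54 to 0.59; no filter gave 99 genes and 0 of the 10. The product of fraction and set called 1696 genes and 5 of the 9 with a floor of 16, 1970 and 4 with a pseudocount of 32, and 1833 and 3 with no filter; it could not be fitted without an array. Unsorted against sorted, 5 genes were 2-fold apart with the mean of probe sets and 5 to 8 with 1 array left out, as were 5 to 8 for feeder against sorted. Feeder against unsorted, 1 was with quantile normalization and 3 with median scaling. The causes were not tested.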
